A study of Arabidopsis thaliana with 6 samples.

Results

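Microarray expression profiles of Arabidopsis thaliana shoot tips were compared, both taken 6 h after estradiol was painted on the meristems: 1 array from plants that carried XVE together with the inducible construct AMY3C-EY, and 1 array from plants that carried XVE alone. These 2 of the 6 arrays were chosen by their labels. Of 43603 probes on the array design, 29451 were well above background on every spot of both arrays, and 25308 of those matched 1 gene locus. After probes with an outlier flag on either array were left out, 18609 genes were measured on both. The question behind the pair is which transcripts differ when the steroid, its receptor protein and the time are shared and the construct is not.

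XVE is a chimeric transcription activator that becomes active when it binds estradiol and then switches on genes placed behind its target promoter. The labels name the construct AMY3C-EY and do not describe its product, the promoter that drives XVE in these lines, or whether each line is a single transformant. Both groups grew in potting soil under long days, were 21 days old, were painted with 20 µM 17-β-estradiol, and gave shoot apical meristem and juvenile leaves pooled from 30 plants. The other 4 arrays, all of AMY3C-EY plants of the same age and pooling, held estradiol at 1 h and 3 h, DMSO (the solvent) at 6 h, and 0 h. Scanner headers place AMY3C-EY at 0, 1, 3 and 6 h together on a first slide, while a second slide, scanned separately, held DMSO together with XVE. Line and slide therefore cannot be told apart between the 2 arrays compared. The DMSO array shares its line with the AMY3C-EY array and its slide with the XVE array, so its level is given beside the others. Processed signal reached a 75th percentile of 810.9 on the AMY3C-EY array and 341.6 on the XVE array, the lowest of the 6, and 75.7% of the spots on the AMY3C-EY array and 67.9% on the XVE array were well above background. With 1 array per group there is no replicate error and no test, the number of arrays limits the precision, and every difference below describes these 2 arrays.

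Levels are log2 signals of the authors' table, in which 0 is close to the 75th percentile of an array, and a difference is the level in AMY3C-EY plants minus that in XVE plants. A gene counted as higher or lower when the difference reached 1, which is 2-fold. Chloroplasts capture light with pigment-binding antenna proteins around photosystems I and II, and the Calvin cycle fixes carbon with rubisco, whose oxygenase side reaction feeds photorespiration. Most proteins of these steps are encoded in the nucleus, and in leaves their genes are among the most abundant messages, set by light, sugars, plastid state and the clock. Flavonoids and anthocyanins are phenolic pigments of the epidermis made by a short, jointly controlled enzyme series. Early touch and wound genes are transcription factors and wall enzymes that respond within minutes to hours of handling.

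Markers of the labelled tissue were found on both arrays. Of 9 shoot meristem markers 7 were well above background in AMY3C-EY plants and 6 in XVE plants. CLV3, a stem cell peptide gene, was at 1.02 and 0.72, while WUS, the stem cell organiser gene, and the boundary gene CUC1 were not well above background on either array. All 6 mesophyll, 4 epidermis and 4 vascular markers were well above background on both arrays. Markers of organs the labels do not name were present in part: 3 and 2 of 4 flower markers, 3 and 2 of 5 root markers, 1 of 2 pollen markers and 1 of 3 seed markers on the AMY3C-EY and XVE arrays, the pollen and seed counts being the same on both. The shoot meristem list of 20 measured genes held none at least 2-fold apart, with a median difference of 0.05 (-0.02 under cyclic loess and -0.13 under normexp, both described below). Fewer cells of a type and less RNA per cell cannot be told apart in such pooled tissue.

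In AMY3C-EY plants 54 of 72 photosynthesis genes were lower than in XVE plants, and 5 of 16 flavonoid genes were higher and 1 lower. Of the 18609 genes, 675 (3.63%) lay 2-fold or more above XVE in AMY3C-EY plants, and 976 (5.24%) lay as far below it. The median over all genes was -0.01, and a 4-fold difference was reached upwards by 50 genes (0.269%) and downwards by 119 (0.639%). The members just inside the threshold were at 1.0005 and -1.0001, and the first one outside it on the higher side at 0.9991. Of 321 called genes with several probes, every probe passed 2-fold in 127 and the probes had the same sign in 307; the other 1330 called genes rested on 1 probe. Higher genes were 40.9% of those called. With the background corrected anew by limma's normexp method they were 330 higher and 754 lower (30.4%), with a median over all genes of -0.16, and without the filter on dim probes 1406 higher and 4092 lower (25.6%). Another 3606 probes were well above background on the AMY3C-EY array only and 222 on the XVE array only, and they were not counted.

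**Figure D1:**
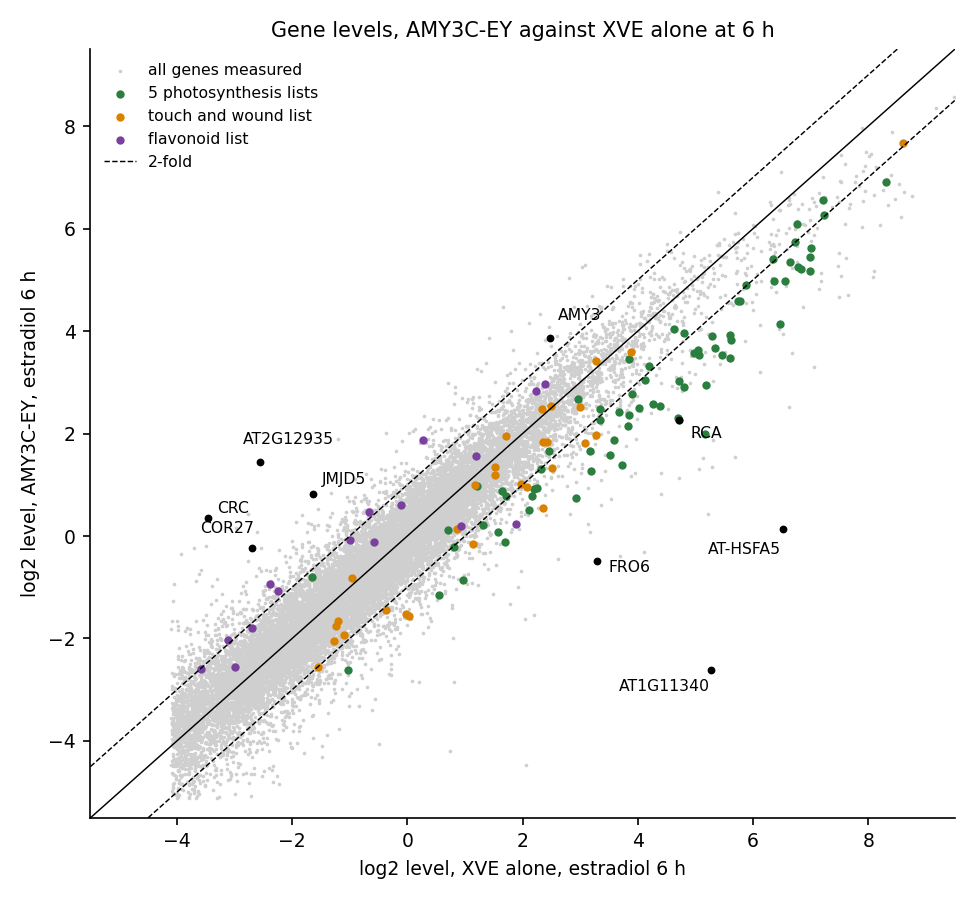
Log2 levels of 18609 genes in AMY3C-EY plants (vertical axis) against XVE plants (horizontal axis), both 6 h after estradiol, with the solid line at equal levels and dashed lines at 2-fold. Coloured points are members of the photosynthesis (green), touch and wound (orange) and flavonoid (purple) lists, and named genes are black. The green points lie below the solid line in 71 of 72 genes, all but CP12-3, and AT1G11340 lies farthest below it.

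The 18 light-harvesting genes stood lowest of the lists with at least 5 measured genes. Their median difference was -1.85, all 18 were below 0, 15 were at least 2-fold lower and none higher. LHB1B1, an antenna protein gene of photosystem II, had levels of 2.72, 2.89, 2.88 and 1.98 at 0, 1, 3 and 6 h in AMY3C-EY plants, 3.48 with DMSO and 5.16 in XVE plants. Its 6 h estradiol level was the lowest of the 6 and its XVE level the highest, a difference of -3.18, or 9.03-fold lower. LHCA3, an antenna gene of photosystem I, was at 4.29, 4.6, 4.47 and 4.13 at 0, 1, 3 and 6 h in AMY3C-EY plants, 5.16 with DMSO and 6.46 in XVE plants. The order was the same, with the 6 h estradiol array -0.16 from 0 h. LHCB3, of the outer antenna of photosystem II, was at 3.47 in AMY3C-EY plants against 5.60 in XVE plants, LHCB4.2, of the inner antenna, at 1.39 against 3.72, and LHCA2 at 2.96 against 5.19. The smallest difference among the 18 was -0.95, that of LHCA1. In 17 of 17 light-harvesting genes well above background on all 6 arrays, the 6 h estradiol array was the lowest, the XVE array the highest, and the DMSO array between them. Several of these genes are near-identical copies (LHB1B1, LHB1B2, CAB1, CAB2, CAB3 and the LHCB2 genes), and the probes may not separate them.

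Nuclear genes for the photosystems were lower as well. The 13 photosystem I genes had a median of -1.52, and 11 were 2-fold or more lower, and the 12 photosystem II genes one of -1.46 with 10 lower; neither list had a gene higher. PSAD-2, a stromal subunit of photosystem I that docks ferredoxin, was at 2.54 in AMY3C-EY plants against 4.38 in XVE plants, with DMSO at 3.26. PSBO2, of the oxygen-evolving complex, was at 0.74 in AMY3C-EY plants against 2.93 in XVE plants, with DMSO at 1.61. Both genes thus had their DMSO level between the 2 arrays compared.

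Carbon fixation and photorespiration genes were lower by a smaller margin. The 20 Calvin cycle genes had a median of -1.12, with 12 at least 2-fold lower and none higher, and the 9 photorespiration genes one of -1.29, with 6 lower. RCA, the activase that frees rubisco of bound sugar phosphates, was at 3.31, 3.89, 3.36 and 2.27 at 0, 1, 3 and 6 h in AMY3C-EY plants, 3.28 with DMSO and 4.71 in XVE plants. It was at least 2-fold lower at 6 h of estradiol than on each of the other 5 arrays, and the differences of its 9 probes from XVE ran from -3.20 to -1.42. GAPB, a chloroplast glyceraldehyde phosphate dehydrogenase subunit, was at 1.26 in AMY3C-EY plants against 3.18 in XVE plants, and the rubisco small subunit genes RBCS2B and RBCS1A were at 3.68 against 5.33 and at 5.21 against 6.83. Among photorespiration genes HPR, the peroxisomal hydroxypyruvate reductase, was at -0.86 in AMY3C-EY plants against 0.97 in XVE plants and PGLP1, phosphoglycolate phosphatase, at -1.15 against 0.55. The smallest difference of that list was that of GOX2, a glycolate oxidase gene, at 0.98 against 1.22.

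Across the 5 photosynthesis lists, 54 of 72 genes were at least 2-fold lower and none higher, with a median of -1.41. The 1 gene above 0 was CP12-3, which encodes a Calvin cycle linker protein, at -0.80 in AMY3C-EY plants against -1.65 in XVE plants. Of the 71 well above background on all 6 arrays, 68 had the order 6 h estradiol below DMSO below XVE, an order found in 24.0% of all 17588 such genes. The 6 h estradiol array was the lowest of the 6 in 61 of the 71 and the XVE array the highest in 63, against 13.7% and 20.5% of all genes. Since 71 of the 72 genes lay below 0, these counts are raised by that direction. The shares over all genes are not limited to it: the reverse order, 6 h estradiol above DMSO above XVE, was found in 23.6%. Relative to 0 h, the median of the light-harvesting list was -0.53 at 6 h of estradiol and 1.29 in XVE plants, and relative to DMSO it was -0.67 at 6 h of estradiol. Within the slide that the DMSO and XVE arrays share, the median of DMSO minus XVE was -1.07, and 10 of 17 genes were lower with DMSO by 2-fold or more (1.71% of all genes were). These differences share arrays and are not independent of each other.

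2 further measurements move with the photosynthesis lists. The first is the brightness of the probe: in 59 photosynthesis genes with several probes the brightest probe gave a median difference of -1.09 and 32 genes at least 2-fold lower, and the dimmest one of -1.71 and 49 genes. Over all 5130 genes with several probes those medians were 0.01 and -0.21. The second is the list of commonly used reference genes, whose median was -0.53, with 3 of 16 at least 2-fold lower and none higher. ACT8, an actin gene, was at -0.17 in AMY3C-EY plants against 1.13 in XVE plants, UBC9, a ubiquitin-conjugating enzyme gene, at 0.11 against 1.18 and UBQ10, a polyubiquitin gene, at 2.57 against 3.36. Under normexp UBC9 (-0.98) and GAPC1 (-0.90) were below 2-fold. The part of either in the photosynthesis result was not tested.

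Lists next to the photosynthetic core each held from 0 to 4 genes at least 2-fold lower and none higher. Of all genes 5.24% were lower and 3.63% higher. Of 23 chlorophyll synthesis genes 2 were at least 2-fold lower, with a median of -0.48 and 22 below 0. CRD1, the cyclase of the magnesium porphyrin branch, was at 3.32, 3.73, 2.96 and 2.40 at 0, 1, 3 and 6 h in AMY3C-EY plants, 3.15 with DMSO and 4.22 in XVE plants. GUN5, the H subunit of magnesium chelatase, was at 4.96 in AMY3C-EY plants against 6.06 in XVE plants, a difference of -1.10 that was -0.65 under quantile scaling, -0.97 under cyclic loess and -0.95 under normexp. CRD1 was thus lowest at 6 h of estradiol and highest in XVE plants. In nitrogen uptake and assimilation 2 of 15 genes were at least 2-fold lower and none higher, with a median of -0.33 and 4 genes above 0. GLU1, ferredoxin-dependent glutamate synthase, was at 3.1 in AMY3C-EY plants against 4.75 in XVE plants with DMSO at 4.62, and GS2, plastid glutamine synthetase, at 1.61 against 2.94. The plastid isoprenoid and carotenoid list had 4 of 18 genes at least 2-fold lower, among them HDR, the last enzyme of the plastid isoprenoid pathway, at 2.0 against 3.32. GS2 and HDR fell short of 2-fold on their brightest probe, at -0.65 and -0.46. No gene of the 14 measured for starch synthesis was 2-fold apart, and their median was -0.22.

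**Figure D2:**
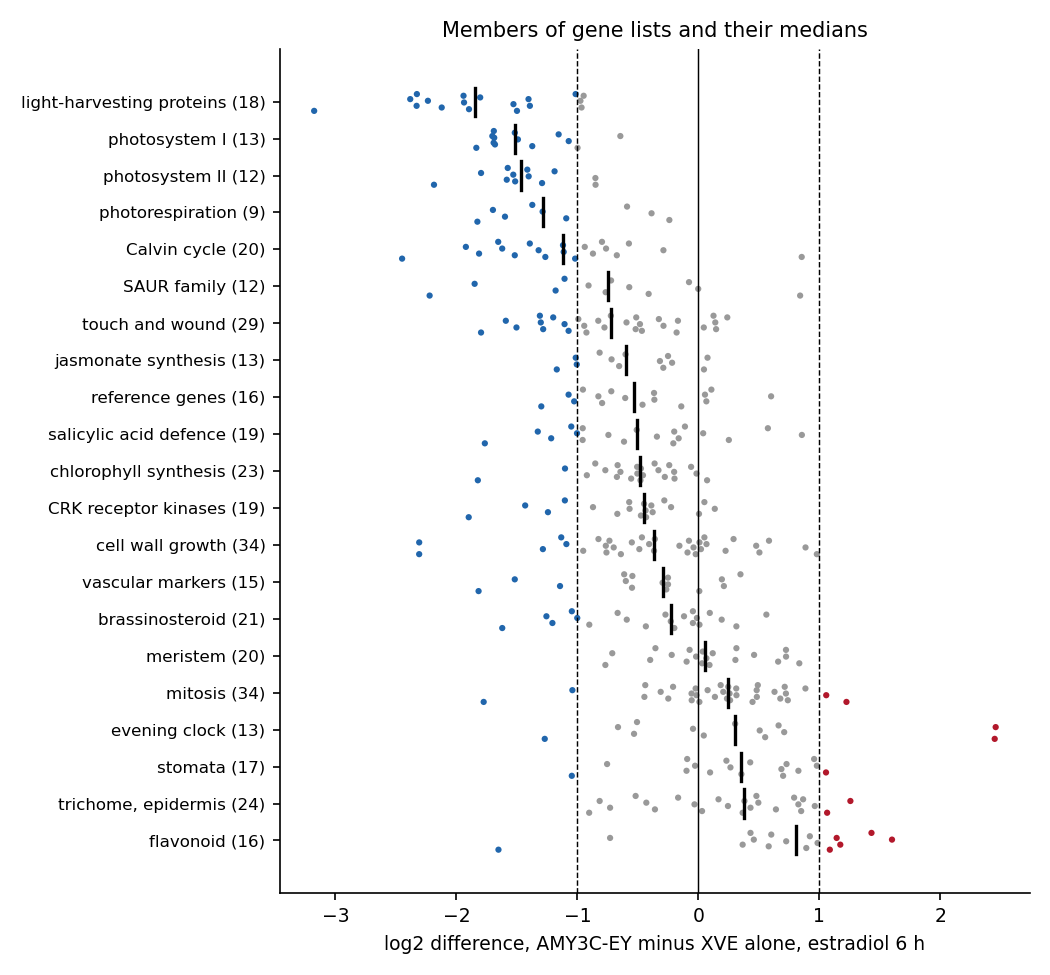
Log2 differences, AMY3C-EY minus XVE at 6 h of estradiol, of the measured members of 21 gene lists and families, with their number in parentheses and the median as a black bar. Dashed lines mark 2-fold; members beyond them are red (higher in AMY3C-EY) or blue (lower). The light-harvesting list lies farthest left with a median of -1.85 and the flavonoid list farthest right with one of 0.81.

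Flavonoid genes were the list farthest in the other direction. Their median was 0.81, and of 16 measured 5 were higher by 2-fold or more and 1 lower. DFR, which makes leucoanthocyanidins, was at 3.27, 2.6, 3.17 and 1.87 at 0, 1, 3 and 6 h in AMY3C-EY plants, 1.47 with DMSO and 0.27 in XVE plants. The XVE level was the lowest of the 6, and 0 h and 3 h were the highest. TT7, the flavonoid 3'-hydroxylase, had a difference of 1.43, the flavonol glucosyltransferase gene UGT78D2 one of 1.17, GSTF12, needed for anthocyanin to reach the vacuole, one of 1.14, and FLS1, flavonol synthase, one of 1.09. The 1 gene lower was MYBL2, a repressor of anthocyanin synthesis, at 0.22, -0.51, 0.47 and 0.23 at 0, 1, 3 and 6 h in AMY3C-EY plants, 1.28 with DMSO and 1.88 in XVE plants. It was highest in XVE plants and next highest with DMSO. Of the 14 flavonoid genes well above background on all 6 arrays, the 6 h estradiol array was the highest in none and the XVE array the lowest in 12. At 6 h of estradiol the median relative to 0 h was -0.59, and in XVE plants it was -1.22, so both arrays lay below 0 h. Under normexp the list's median was 0.48, and TT7 (0.75), UGT78D2 (0.54) and GSTF12 (0.97) were below 2-fold. DMSO minus XVE, on 1 slide, had a median of 0.61.

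The neighbouring phenolic genes differed among themselves. UGT72E2 and UGT72E3 encode glucosyltransferases of monolignols, the precursors of lignin. UGT72E3 was at 3.19, 1.92, 2.44 and 3.21 at 0, 1, 3 and 6 h in AMY3C-EY plants, 3.03 with DMSO and 6.12 in XVE plants. Only the XVE level stood apart, with the other 5 between 1.92 and 3.21. These levels came from 1 probe, while a second probe of UGT72E3, at -7.37 in AMY3C-EY plants and -6.41 in XVE plants, was not well above background on either array. UGT72E2 was at -2.74, -2.83, -2.83 and 0.22 at 0, 1, 3 and 6 h in AMY3C-EY plants, -0.93 with DMSO and -1.56 in XVE plants. It was highest at 6 h of estradiol and well below that on the 3 earlier arrays. UGT84A2, a sinapate glucosyltransferase gene, was at 2.68 in AMY3C-EY plants against 1.06 in XVE plants, and PAL3, a phenylalanine ammonia-lyase gene, at -5.04 against -3.77. Both PAL3 levels were close to the lowest signal well above background, -5.14 on the AMY3C-EY array and -4.10 on the XVE array. The phenylpropanoid list as a whole had a median of -0.08, with 1 of 18 higher and 2 lower.

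Of 29 early touch and wound genes 9 were at least 2-fold lower in AMY3C-EY plants and none higher, with a list median of -0.72 and 5 genes above 0. The DMSO level lay between the 2 arrays in 14 of the 29. At 6 h of estradiol the median relative to DMSO was -0.70, and DMSO minus XVE had one of -0.02. TCH4, a xyloglucan-modifying wall enzyme, was at 2.84, 2.22, 2.71 and 1.97 at 0, 1, 3 and 6 h in AMY3C-EY plants, 3.2 with DMSO and 3.28 in XVE plants. Its 2 arrays of the second slide were the highest. STZ, a zinc-finger repressor of stress responses, was at 1.32 in AMY3C-EY plants against 2.52 in XVE plants with DMSO at 2.52. For WRKY33, a transcription factor gene of defence, the values were 0.56 against 2.35 with DMSO at 1.31, between them. The ethylene response factor genes ERF5, ERF6 and ERF11 had differences of -1.59, -1.50 and -1.3, and 6 of 23 genes of that family were at least 2-fold lower with none higher.

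Defence genes had lower medians too. In the salicylic acid and defence list 5 of 19 genes were at least 2-fold lower, the median being -0.51, and among cysteine-rich receptor kinases 4 of 19, with one of -0.45; neither list had a gene higher. SARD1, a transcription factor that promotes salicylic acid synthesis, was at -2.49, -2.34, -2.47 and -1.53 at 0, 1, 3 and 6 h in AMY3C-EY plants, -0.26 with DMSO and 0.24 in XVE plants. DMSO and XVE were the highest. PAD4, a lipase-like immune regulator, was at -2.78 in AMY3C-EY plants against -1.57 in XVE plants (-0.84 apart on its brightest probe), and CRK21 at -3.19 against -1.3. Among WRKY factors 10 of 50 were lower and 2 higher, with a family median of -0.04. Jasmonate synthesis genes had a median of -0.60 with 3 of 13 lower, LOX3, a lipoxygenase gene, being at -0.47 against 0.70. The other 2, OPCL1 and AOC3, were below 2-fold under quantile scaling (-0.92 and -0.99) and normexp (-0.90 and -0.91). Of the JAZ repressor genes of jasmonate signalling 2 of 11 were lower, with differences of -1.80 for JAZ8 and -1.74 for JAZ7.

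SAUR, expansin and brassinosteroid genes that were 2-fold apart were all lower in AMY3C-EY plants. In the SAUR family of small auxin-responsive genes 4 of 12 were at least 2-fold lower and none higher, with a median of -0.74. SAUR15 was at -3.60, -4.20, -3.64 and -2.98 at 0, 1, 3 and 6 h in AMY3C-EY plants, -3.09 with DMSO and -1.13 in XVE plants. The XVE array stood alone, and 6 h estradiol and DMSO differed by 0.11. IAA29, an Aux/IAA repressor gene, was at -4.49, -3.70, -3.93 and -3.39 at 0, 1, 3 and 6 h in AMY3C-EY plants, -2.95 with DMSO and -0.62 in XVE plants. It showed the same single high level, although it was not well above background on all 6 arrays. Of the 37 genes of the auxin list 4 were lower and none higher: IAA29, SAUR15, SAUR19 (-1.18) and PIN4 (-1.08), an auxin efflux carrier gene. Among expansins, which loosen the wall, 5 of 15 were lower and none higher. EXPA8 was at -2.64, -4.40, -3.92 and -2.60 at 0, 1, 3 and 6 h in AMY3C-EY plants, -1.47 with DMSO and -0.29 in XVE plants. EXPA11 was at -3.94 in AMY3C-EY plants against -1.63 in XVE plants, with DMSO at -2.68. DMSO lay between the 2 arrays for both. Of the 21 brassinosteroid genes 5 were lower, among them BEH1, a homologue of the BES1 and BZR1 factors, at -4.32 against -2.70, and BAS1, a brassinosteroid-inactivating cytochrome P450, at -4.24 against -2.98; their median was -0.23.

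**Figure D3:**
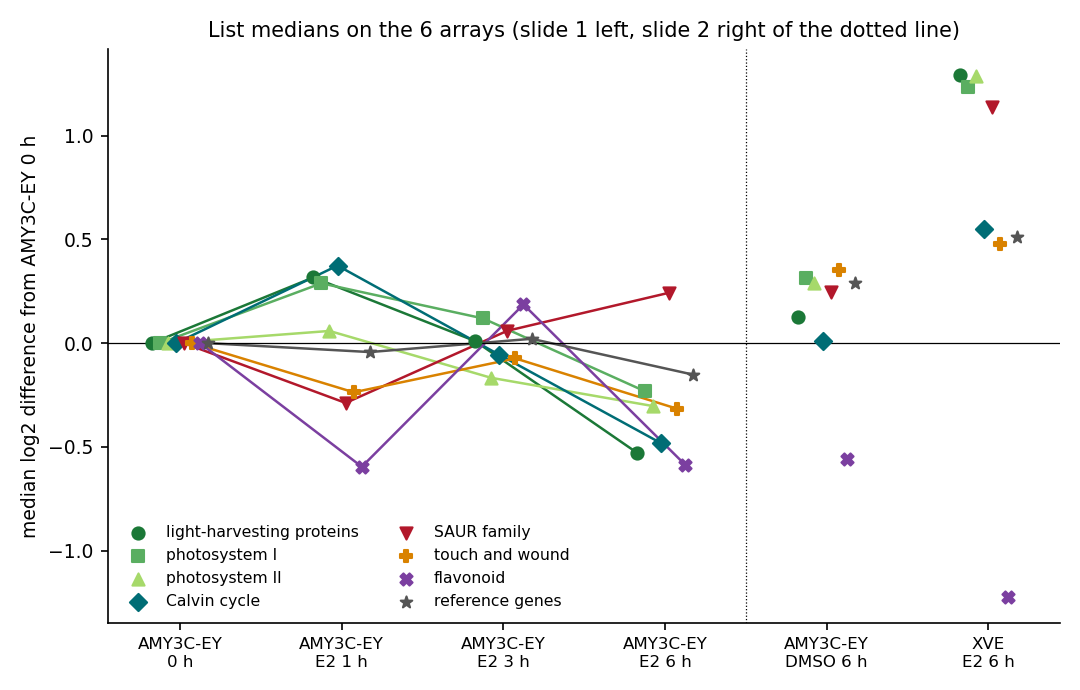
Median log2 difference from 0 h of 8 gene lists on the 6 arrays, with 0 h at 0 by construction and the AMY3C-EY time course joined by lines. The XVE array holds the highest median for the light-harvesting list, 1.29, and the lowest for flavonoid genes, -1.22; no error is drawn because each group is 1 array.

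Cell type lists had medians of either sign. That of the vascular genes was -0.30. Of 15 vascular genes 3 were at least 2-fold lower and none higher: SUC2, the sucrose transporter of companion cells, was at -3.07 in AMY3C-EY plants against -1.25 in XVE plants, PP2-A1, a phloem protein gene, at -1.74 against -0.22 and SEOR1, a sieve element gene, at -2.27 against -1.13. The list's other phloem genes APL, SULTR2;1 and NAKR1 had differences of -0.61, -0.60 and -0.27. The xylem protease gene XCP1 was at 0.42 against 0.08. Trichome and epidermis genes had a median of 0.37, with 2 of 24 higher, where 3.63% of all genes were. Stomatal lineage genes had one of 0.36, which turned to -0.05 under normexp. GL2, a homeodomain factor of trichomes, was at -0.15 in AMY3C-EY plants against -1.21 in XVE plants, and EPF2, a peptide that limits stomatal entry divisions, at -1.71 against -2.76. FMA, which directs the last step of guard cell formation, went the other way at -4.08 against -3.04. Under normexp the differences of GL2 (0.77), EPF2 (0.29) and FMA (-0.98) were below 2-fold. Mitosis genes had a median of 0.24, with CDC20.1, an activator of the anaphase-promoting complex, at 2.73 in AMY3C-EY plants against 1.67 in XVE plants and PC-MYB1, a MYB3R factor, at -1.25 against 0.52.

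Clock and light genes differed gene by gene. JMJD5, which encodes a jumonji protein of the clock, was at -0.87, -1.38, -1.51 and 0.82 at 0, 1, 3 and 6 h in AMY3C-EY plants, -1.42 with DMSO and -1.63 in XVE plants. The 6 h estradiol array stood apart from all others. COR27, a cold-regulated clock repressor gene, was at -6.67, -6.73, -8.0 and -0.24 at 0, 1, 3 and 6 h in AMY3C-EY plants, -2.01 with DMSO and -2.70 in XVE plants. It was not well above background at 0, 1 and 3 h, and the 3 arrays at 6 h were the highest. LKP2, a blue-light receptor F-box gene, was at -2.87 in AMY3C-EY plants against -1.6 in XVE plants, PRR9, a pseudo-response regulator gene, at -4.35 against -3.14, and LCL1, a morning MYB gene, at -1.12 against 0.42. The evening list had a median of 0.30 and the morning list one of -0.44; against 0 h the morning list was at -2.15 on the 6 h estradiol array and at -1.73 on the XVE array. BBX28, a B-box light-signalling factor, was at 0.07, 0.38, -0.07 and -1.66 at 0, 1, 3 and 6 h in AMY3C-EY plants, 0.10 with DMSO and 0.42 in XVE plants. Only the 6 h estradiol array was low. In the TEMPRANILLO group of floral repressors RAV2 was at -1.03 in AMY3C-EY plants against 0.85 in XVE plants, TEM1 at 0.36 against 1.43 and RAV1 at -0.63 against 0.38. Their DMSO levels were 0.55, 1.5 and 0.63, nearer XVE than 6 h estradiol. EDF3 of the same family was at -1.68 against -2.81. The floral repressor genes MAF5 and FLC were at -2.02 against -3.31 and at -0.10 against -1.21. Under normexp TEM1 (-0.95), EDF3 (0.46), MAF5 (0.33) and FLC (0.77) were below 2-fold.

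AMY3, which encodes a plastid α-amylase and has 1 probe, was at 1.33, 2.48, 3.55 and 3.87 at 0, 1, 3 and 6 h in AMY3C-EY plants, 2.52 with DMSO and 2.47 in XVE plants. It was highest at 6 h of estradiol, with a difference of 1.41, 2.65-fold, and DMSO minus XVE was 0.05. The labels do not say whether the construct holds AMY3 sequence, so the probe checks no label. Of the 16 starch breakdown genes AMY3 was the 1 at least 2-fold apart, and their median was -0.23. CRC, a YABBY factor of carpels and nectaries, was at -1.95, -0.94, -1.21 and 0.35 at 0, 1, 3 and 6 h in AMY3C-EY plants, -2.36 with DMSO and -3.45 in XVE plants, a difference of 3.80. The 6 h estradiol array was the highest and XVE the lowest, and the difference was 2.52 under normexp. Of 9 floral organ genes CRC was the 1 at least 2-fold apart.

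The other 4 arrays show where the called genes part. Of the called genes, 663 higher and 823 lower were well above background on all 6 arrays. The 6 h estradiol array lay beyond all 5 others in 203 of the 663 (30.6%) and 376 of the 823 (45.7%). The XVE array did so in 534 (80.5%) and 639 (77.6%). Over all 17588 genes the 6 h estradiol array was the highest in 10.1% and the lowest in 13.7%, and the XVE array the lowest in 22.0% and the highest in 20.5%. Since the genes were chosen for the gap between these 2 arrays, both shares are raised by the choice. The 0 h array was nearer the 6 h estradiol array than the XVE array in 575 (86.7%) and 654 genes (79.5%), and the DMSO array in 371 (56.0%) and 414 (50.3%). For nearness the shares over all genes were not calculated, so these counts cannot be set against them. The 0 h array shares its line and slide with the 6 h estradiol array. At least 2-fold from DMSO in the same direction were 115 of the higher genes and 206 of the lower, and DMSO was itself at least 2-fold from XVE in 168 and 193. Over all genes the 2-fold shares for 6 h estradiol over DMSO were 1.32% higher and 2.23% lower, and those for DMSO over XVE were 2.1% higher and 1.71% lower. From 0 h the 6 h estradiol array was 2-fold away in the direction of the call in 53 and 79 genes, where 2.52% of all genes were higher and 2.12% lower than at 0 h. The XVE array was 2-fold away from 0 h in the opposite direction in 494 and 462 genes, where 7.28% of all genes were lower and 6.88% higher than at 0 h.

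**Figure D4:**
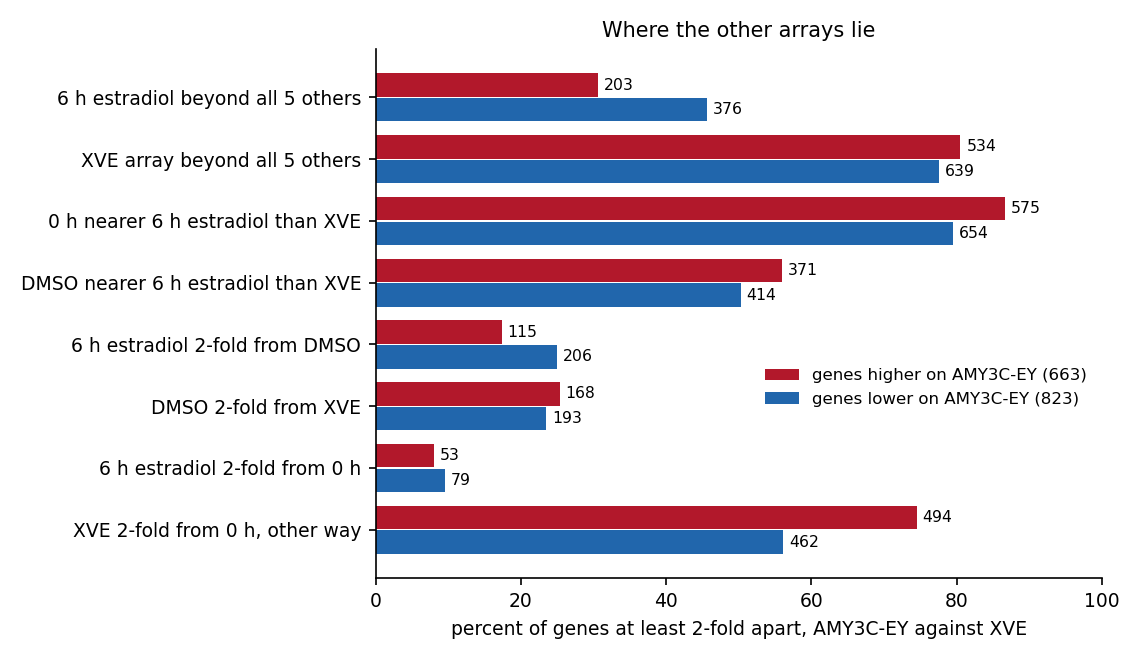
Share of the 663 higher (red) and 823 lower (blue) genes well above background on all 6 arrays for which each statement on the left holds, with the gene number at the bar end. The 6 h estradiol array is beyond the 5 others in 203 higher and 376 lower genes, and the XVE array in 534 and 639.

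Most called genes fell in none of the 5 groups described from here on: 577 of the 663 higher (87.0%) and 578 of the 823 lower (70.2%). A gene can belong to more than 1 group. Genes for which the XVE array stood at least 2-fold from each of the 5 others numbered 30 higher in AMY3C-EY plants (0.171% of all genes) and 111 lower (0.631%). FRO6 and FRO7, neighbouring ferric reductase genes of shoots, the second known from chloroplasts, were among the lowest. FRO6 was at 0.45, -0.30, 0.03 and -0.49 at 0, 1, 3 and 6 h in AMY3C-EY plants, 0.84 with DMSO and 3.29 in XVE plants. FRO7 was at -1.41, -1.28, -0.70 and -1.61 at 0, 1, 3 and 6 h in AMY3C-EY plants, 0.16 with DMSO and 2.04 in XVE plants. XVE was 13.8-fold and 12.6-fold above 6 h estradiol, DMSO came next, and both probes of FRO6 lay between -3.86 and -3.70. Of the 16 iron genes these 2 were lower and 1 higher, FER2, a ferritin gene, at 0.48 against -0.88. PHB7, a prohibitin gene, was at 2.53 in AMY3C-EY plants against 6.62 in XVE plants with DMSO at 5.24, and RL4, a small RADIALIS-like MYB gene, at -2.86 against 0.19 with DMSO at -2.19. MCT2 was at 3.3 against 7.06 with DMSO at 5.89. AT5G18600 (-4.93), AT1G67865 (-4.10) and AT1G23130 (-3.74) completed the lowest, together with AT1G11340 and LHB1B1. On the higher side SLAH1, a homologue of the guard cell anion channel SLAC1, was at 0.91, -0.22, -0.93 and -0.19 at 0, 1, 3 and 6 h in AMY3C-EY plants, -2.30 with DMSO and -3.49 in XVE plants. WAK5, a wall-associated kinase gene, was at 0.42 in AMY3C-EY plants against -2.77 in XVE plants with DMSO at -1.43. BPM1, a substrate adaptor of ubiquitin ligases, was at 3.17, 3.61, 3.24 and 3.87 at 0, 1, 3 and 6 h in AMY3C-EY plants, 3.35 with DMSO and 1.41 in XVE plants. Only XVE was low for BPM1, whereas SLAH1 and WAK5 were highest at 0 h. The rest of the 10 farthest were AT2G12935 (4.01), CRC, AT1G10300 (3.47), AT1G47497 (2.80), AT3G17490 (2.46), AT5G42640 (2.43) and AT4G03830 (2.22). AT1G47497 was at -4.07 in XVE plants, close to the lowest signal well above background there, -4.10. Under normexp SLAH1 was at 1.99 and AT5G42640 at 0.79.

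For 18 higher (0.102%) and 68 lower genes (0.387%) the 4 arrays of the first slide stood at least 2-fold from both arrays of the second. The farthest difference of all belonged here: AT1G11340 was at -2.10, -3.22, -3.30 and -2.62 at 0, 1, 3 and 6 h in AMY3C-EY plants, 4.26 with DMSO and 5.27 in XVE plants. Its 6 h estradiol level was 238-fold below its XVE level. These levels came from 1 probe, while a second probe of the gene, at -6.45 and -5.61, was not well above background on either array. AT-HSFA5, a heat stress factor gene, was at 1.16, 0.00, 0.03 and 0.14 at 0, 1, 3 and 6 h in AMY3C-EY plants, 5.60 with DMSO and 6.52 in XVE plants. MYB105, a MYB factor of organ boundaries, was at 0.96, 0.03, 0.23 and 0.43 at 0, 1, 3 and 6 h in AMY3C-EY plants, 4.65 with DMSO and 5.21 in XVE plants. In both, DMSO lay on the side of XVE, as the rule for this group requires. The DMSO array shares its line with the 4 low arrays and its slide with XVE. AT3G62070, with a difference of -4.42, and AT3G22030, with one of -6.53 and not well above background on all 6 arrays, had DMSO at 4.12 and 1.74 and XVE at 4.11 and 2.07. BRC1, a repressor of bud growth, gave opposite differences from its 2 probes, -3.28 and 0.38, the first with DMSO at 1.28 and XVE at 1.57. On the higher side AT3G19390 was at -0.35 in AMY3C-EY plants against -3.93 in XVE plants with DMSO at -3.08.

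Only 14 higher (0.0796%) and 11 lower genes (0.0625%) had the 6 h estradiol array at least 2-fold from all 5 others. Beside CRC and JMJD5 the farthest higher were AT2G22345 (2.79), AT5G26840 (2.21) and AT3G28960 (2.03), the last 2 with XVE at -3.97 and -3.83, close to the lowest signal well above background there, -4.10. Under normexp AT5G26840 was at 0.82 and AT3G28960 at 0.48. The farthest lower were AT1G22690, at -3.77 in AMY3C-EY plants against -1.19 in XVE plants, RCA, AT2G25735, at -4.68 against -2.51, BBX28 and RAV2. Both 6 h AMY3C-EY arrays, estradiol and DMSO, stood 2-fold from XVE while 0 h did not in 22 higher (0.125%) and 47 lower genes (0.267%). DIN11, a dark-inducible gene, was at -2.87, -0.81, -1.48 and -1.74 at 0, 1, 3 and 6 h in AMY3C-EY plants, -1.06 with DMSO and -3.47 in XVE plants. XVE was lowest and 1 h and DMSO the highest, and under normexp the difference of DIN11 was 0.63. AT5G14690 (2.09), AT3G43660 (1.91), AT1G43720 (1.85) and PIRL2 (1.62), a leucine-rich repeat gene, were the others farthest above, and CYP71A18 (-2.17), AT3G16800 (-2.05), ACL (-1.93), CYP71B2 (-1.93) and HPR those farthest below. The 6 h estradiol array was 2-fold from XVE, DMSO and 0 h together in 22 higher (0.125%) and 30 lower genes (0.171%), which besides genes already named include AT1G77150 (2.29), AT2G14160 (-3.08) and APPR6 (-2.39).

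**Figure D5:**
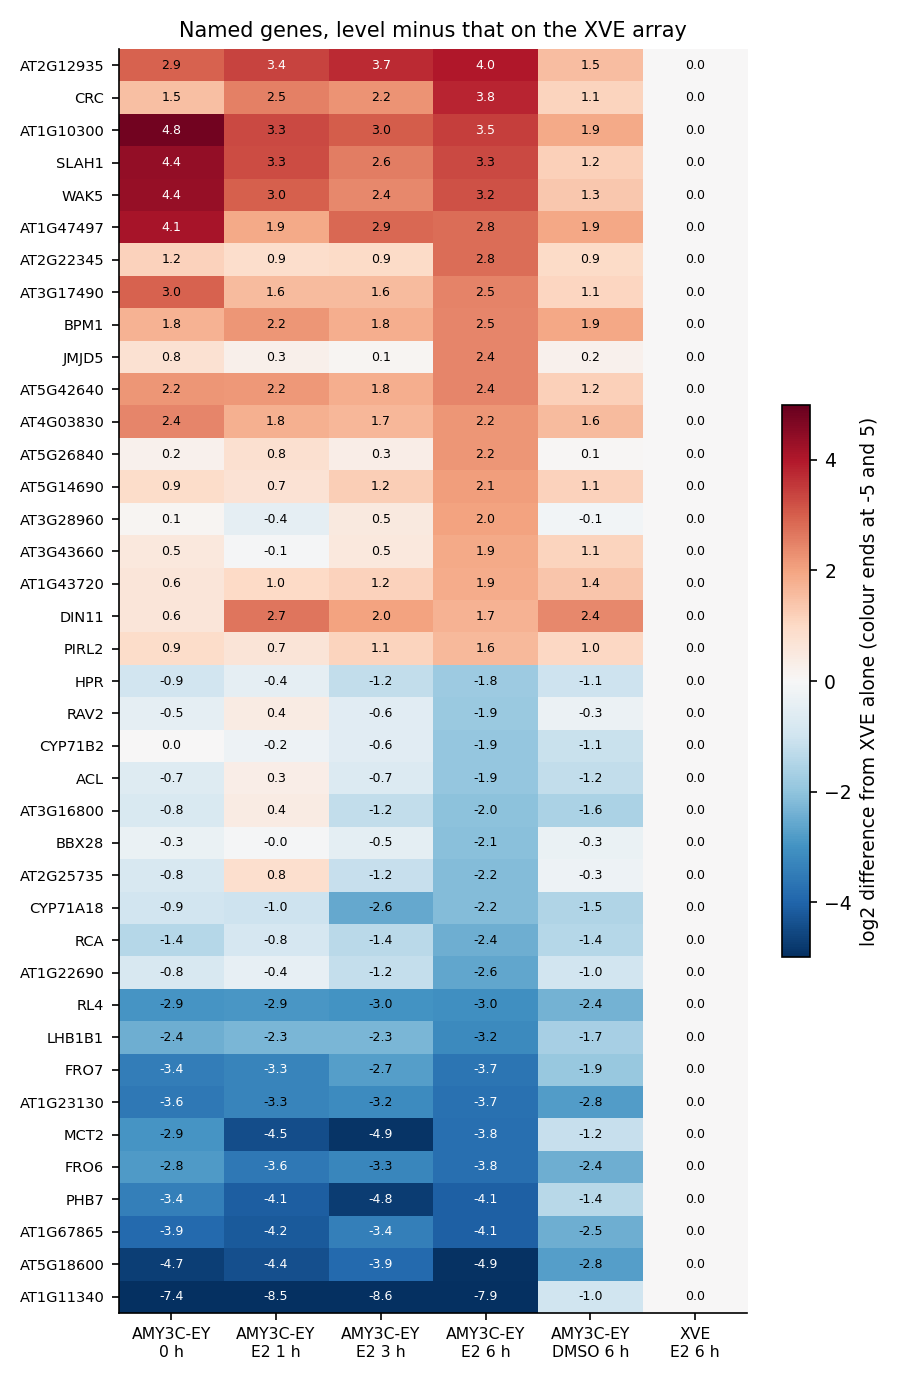
Log2 level minus that on the XVE array (last column, 0 by construction) of the genes farthest apart in 3 of the groups described, over the 6 arrays. Red is above and blue below XVE; JMJD5 is 2.45 above XVE at 6 h of estradiol and 0.21 above it with DMSO, whereas AT1G11340 has differences of -7.89 and -1.02.

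Other lists held calls in both directions or few. Their counts stand beside 3.63% higher and 5.24% lower over all genes. The cytochrome P450 family, with 132 measured genes, had 6 higher and 17 lower, and R2R3 MYB factors 4 and 4 of 61. Abscisic acid and water stress genes had 3 of 32 higher and none lower, which were RD20, a caleosin gene, at 2.13 in AMY3C-EY plants against 0.40 in XVE plants, LTI78 at 0.64 against -0.93 and the dehydrin gene LTI30 at 0.24 against -0.90 (0.94 apart under normexp). Among sugar-starvation genes SEN1 was at -3.80 against -2.30 and ASN1, asparagine synthetase, at -0.95 against 0.48, with DIN11 going the other way. In the phosphate list the transporter gene PHT1;7 was at -0.09 in AMY3C-EY plants against -2.0 in XVE plants and PHT1;1 at -1.70 against -2.83 (0.56 apart under normexp). The 2 lower genes of that list were the transporter gene PHT1;8 at -2.40 against -1.13, whose difference was -0.82 under normexp and 0.23 on its brightest probe, and MGDC, a galactolipid synthase gene, at -4.18 against -3.15 (-0.995 apart under normexp). IPT1, a cytokinin synthesis gene, was at 4.33 against 2.81, RR2, a cytokinin response regulator, at -4.41 against -3.03 (-0.998 apart under normexp), and CYP79B3, of indole glucosinolate synthesis, at 3.63 against 1.83. None of the 20 heat, 14 endoplasmic reticulum folding or 17 aquaporin genes was 2-fold apart. The heat list does not hold AT-HSFA5, the heat stress factor gene described above, which was far lower in AMY3C-EY plants.

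Along the genome the called genes were spread over all 5 chromosomes, with 3.26% to 4.13% of genes higher and 4.94% to 5.96% lower on each. Neighbouring measured genes called in the same direction formed 29 runs with 60 higher genes and 77 runs with 165 lower genes, and the longest on each side held 4 genes. How many runs the shares of called genes alone would give was not calculated, so the counts do not show that called genes cluster. The higher run was UBP26, AT3G49601, AT3G49610 and DIN11, with differences of 1.08, 1.23, 2.07 and 1.73. The lower run was AT2G32140, AT2G32150, AT2G32160 and AT2G32170, from -1.80 to -1.10. Runs of 3 held the tandem cytochrome P450 genes CYP706A4 (-1.49), CYP706A5 (-1.26) and CYP706A6 (-2.79), and the rubisco small subunit genes RBCS3B and RBCS2B with AT5G38390 between -2.09 and -1.39; copies in tandem may share probe signal.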

How the data were processed

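Agilent 1-colour arrays were hybridised with RNA of pooled Arabidopsis shoot tips. Spot intensity values are the scanner output that the authors deposited, per the file headers, made with Feature Extraction 10.5.1.1 per the submitters' processing notes. The log2 values are those of the table the authors deposited; at least 99.98% of probes on each array lay within 0.01 of log2 of the processed signal minus its 75th percentile. Probes flagged well above background on every spot of both arrays, without an outlier flag, were averaged per locus, with locus and symbol taken from the probe table and RefSeq. Genes at least 2-fold apart were counted. With 1 array per group no test was run.

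Gene lists (54) and families (28) and the groups of genes were chosen with earlier results of these data known; 11 wrong symbol matches were dropped. Named genes were the 10 farthest each way where the XVE array stood apart, the 5 farthest each way of every other group and of all genes, and up to 4 members of each list. STZ, FLS1, LHCA1, LHCA2, GOX2, CP12-3, RAV1, SULTR2;1, NAKR1 and the genes of the chromosomal runs were named after their values were seen. Alternatives were the scanner signal, quantile scaling, cyclic loess, normexp with an offset of 50 (on median signals), no filter, a filter on all 6 arrays, the brightest probe and outliers kept. R 4.3.3 with limma 3.58.1, Python 3.11.15, pandas 2.3.3 and numpy 2.4.6 were used, and the calculation was tested on simulated data. Plastid and mitochondrial genes and promoter motifs were not analysed here.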

Additional observations from a re-analysis of the deposited data

How the results depend on the processing

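The counts of higher and lower genes lay within 1.5 times 675 and 976 under the scanner signal, quantile scaling, cyclic loess, the filter on all 6 arrays, the brightest probe and with outliers kept. Normexp gave 330 higher genes and a median of -0.16 over all genes, to which its differences are relative, and leaving out the filter on dim probes gave 1406 higher and 4092 lower among 25353 genes. Normexp also left 8 higher and 70 lower genes where the XVE array stood apart, 4 higher where the slides parted, 8 higher and 3 lower where the 6 h estradiol array stood apart from all 5 others, 11 higher where both 6 h AMY3C-EY arrays did, and 12 higher and 9 lower where 6 h estradiol stood apart from XVE, DMSO and 0 h. List medians changed sign under normexp for boundary (-0.30), floral organ (-0.092), pollen (-0.034), stomatal (-0.049), seed (-0.0032), NAC (-0.14) and bZIP genes (-0.19), and without the filter for boundary (-0.12), pollen (-1.05), seed (-0.26), LCR and defensin (-0.27) and bZIP genes (-0.30). TPS03 (-0.16) changed sign under normexp, and PHT1;8 (0.23) under the filter on all 6 arrays and on the brightest probe. Of 212 named genes at least 2-fold apart, 60 were below 2-fold under normexp, 12 under quantile scaling, 9 on the brightest probe, 7 under cyclic loess and 4 without the filter. The cause was not tested. An alternative added after seeing the data, which asks every probe of a gene to be 2-fold apart, gave 649 higher and 808 lower. The 1330 called genes with 1 probe meet it by construction, and of the 321 called genes with several probes 127 met it. The photosynthesis and flavonoid lists kept their direction under the 8 other alternatives, the light-harvesting median between -1.85 and -1.28. No paired analysis was possible because each group is 1 array and the labels carry no replicate numbers. The dimmer XVE array, with its lowest level well above background at -4.10 against -5.14 at 6 h of estradiol, limits low genes.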
